A study of Mus musculus with 6 samples.

Results

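Pacemaker cells of the sinoatrial node set the beat of the heart from the roof of the right atrium (RA). They fire on their own because HCN channels pass an inward current when the membrane is at its most negative, while calcium released by the sarcoplasmic reticulum helps to start each beat. A few transcription factors hold these cells apart from the working atrial myocardium: Shox2, Isl1 and the T-box factors Tbx3 and Tbx18. Together with the channel genes Hcn2 and Hcn4 and the marker genes Smoc2 and Vsnl1, they make up the 8 genes described here, chosen by symbol from the 54093 genes of the table, of which 26706 were above 0 in at least 1 library. Each symbol stood on 1 row, and all 8 genes were above 0.

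The RAs came from C57BL/6 WT mice, male or female, that had aortocaval fistula (ACF) or sham surgery at P7 and were sampled at P21. The fistula joins the abdominal aorta to the inferior vena cava and loads the RA with volume, and the groups are called VO and sham, with 3 RNA-seq libraries each. The labels describe RA free wall myocardium and do not say whether the node was kept in the piece, how many animals went into a library, or that the replicates came from separate animals. The p-values therefore measure the spread between these libraries. Sham 2 and VO 3 held the Y-linked gene Ddx3y and almost no Xist (0.0097 and 0.0102 FPKM), unlike the rest of their groups. They thus came from other animals, while the spread among the remaining libraries of a group may be technical. Levels are FPKM as deposited (fragments per kilobase of gene, divided by a scaling size for each library), a per-length scale on which genes can be compared with each other. The log2 fold change is the difference VO minus sham of log2(FPKM + 0.1), a scale that understates the change of low genes.

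The libraries held 15963082 to 17237903 fragments on genes, and the atrial genes Myl7 and Nppa stood at 2586 to 8501 and 1026 to 5513 FPKM. The Y-linked gene Ddx3y was read at 27.3 FPKM in sham 2 and 28.3 in VO 3 and at no more than 0.0106 in the other 4 libraries, which held Xist at 28.2 to 63.6 FPKM. VO 3 stood apart through genes of brown fat and nerve: Ucp1, the uncoupling protein of brown fat, was read at 254 FPKM there and at 0 in the other 5. VO 1 had the lowest level of the cardiomyocyte gene Tnnt2, 221 FPKM against 304 to 485 in the other 5 libraries. The sham libraries also differed among themselves. The ventricular gene Myl2 was read at 60.4, 2.02 and 56.0 FPKM in sham 1 to 3. In VO 1 to 3 it was at 6.95, 1.54 and 20.6 FPKM. The hemoglobin gene Hba-a1 was highest in sham 1 and VO 1, at 2614.5 and 2767 FPKM, against 258 to 990 in the rest. The part of ventricular tissue and blood in the levels of the nodal genes was not tested.

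None of the 8 genes differed between the groups at an adjusted p under 0.05 in limma's moderated test, and in none of them were the groups free of overlap. Tbx18 alone had an unadjusted p under 0.05, with 5.34 ± 1.41 FPKM in VO (SD, n = 3) and 3.48 ± 0.766 in sham. Tested were 12627 genes whose mean reached 1 FPKM, among them 7 of the 8 genes, while Isl1 was read from a wider fit of 19053 genes whose mean reached 0.1 FPKM. Among all 12627 genes, 12.0% had an unadjusted p under 0.05 (3.89% higher and 8.08% lower in VO), 0.00792% an adjusted p under 0.05, and 21.2% were without overlap between the groups, so 1 of 7 at the unadjusted threshold is close to the share over all genes. In the wider fit the shares were 9.84% at the unadjusted threshold, 0.0157% at the adjusted one and 17.8% without overlap. What set most of these genes apart was the spread inside each group: Hcn4, Shox2, Vsnl1 and Isl1 were high in sham 2 and VO 3 and low in VO 1. In bulk RNA, fewer nodal cells in a library and less nodal RNA per cell cannot be told apart.

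**Figure D1:**
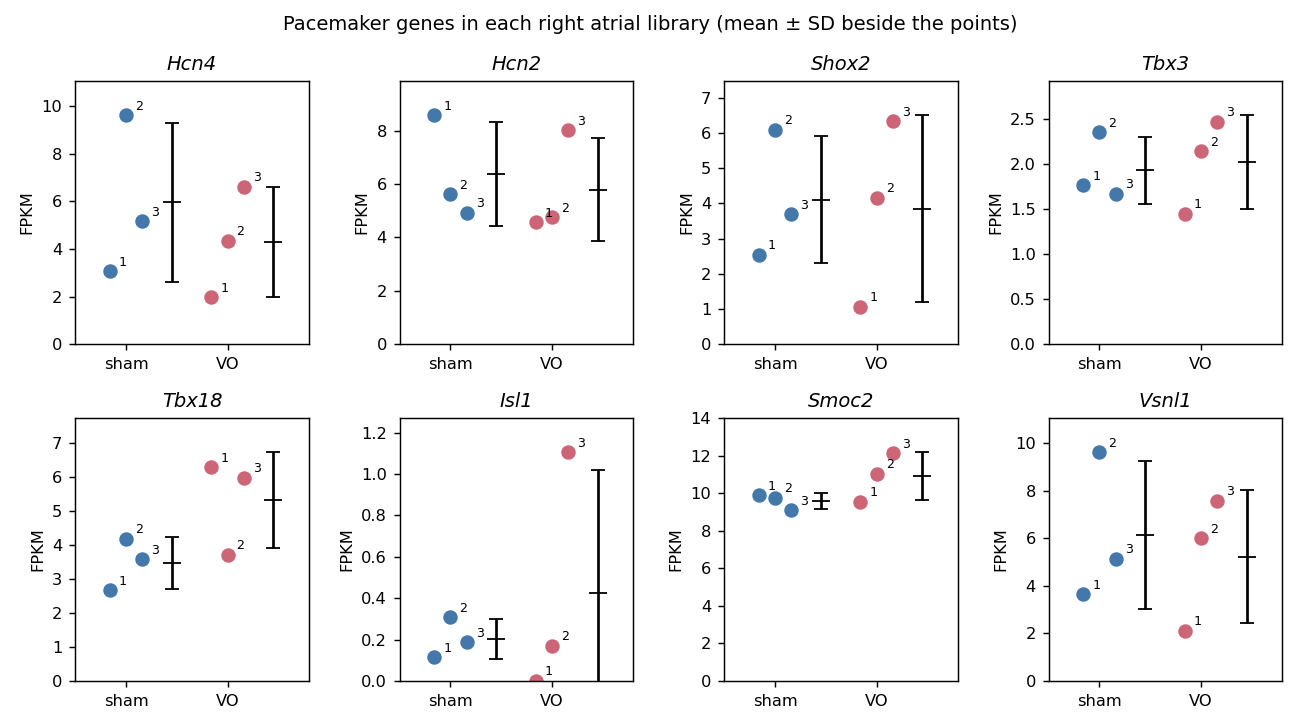
FPKM of the 8 genes in each library (points, numbered by replicate; sham in blue, VO in red), with the mean and SD of the 3 libraries of each group as a bar beside them. Hcn4, Shox2, Vsnl1 and Isl1 spread widely within both groups, Smoc2 stays between 9.09 and 12.1 FPKM, and the SD bar of Isl1 in VO is cut off at 0.

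The promoters of Hcn4, Shox2 and Vsnl1, whose levels followed each other most closely over the libraries, are shown beside that of Tbx18, which did not follow them. Each is the stretch before the transcription start in RefSeq on GRCm38.p6, read 5′ to 3′ along the gene's strand, for chr9:58822699-58822948 on the plus strand (Hcn4), chr3:66981772-66982021 on the minus strand (Shox2), chr12:11436614-11436828 on the minus strand (Vsnl1, 215 bases) and chr9:87731261-87731510 on the minus strand (Tbx18). Capitals mark matches to a T-box core, AGGTGT, on either strand, or to a homeobox core, TAATT, on either strand.
Hcn4: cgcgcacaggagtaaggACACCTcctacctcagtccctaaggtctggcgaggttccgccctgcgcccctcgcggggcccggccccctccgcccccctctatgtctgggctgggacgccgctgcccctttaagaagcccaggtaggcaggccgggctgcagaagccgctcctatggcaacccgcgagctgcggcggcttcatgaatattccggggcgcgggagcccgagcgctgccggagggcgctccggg
Shox2: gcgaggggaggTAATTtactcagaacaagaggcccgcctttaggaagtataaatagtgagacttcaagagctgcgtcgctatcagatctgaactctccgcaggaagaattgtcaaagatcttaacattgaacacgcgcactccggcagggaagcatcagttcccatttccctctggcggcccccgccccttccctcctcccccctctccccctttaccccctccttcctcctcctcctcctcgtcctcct
Vsnl1: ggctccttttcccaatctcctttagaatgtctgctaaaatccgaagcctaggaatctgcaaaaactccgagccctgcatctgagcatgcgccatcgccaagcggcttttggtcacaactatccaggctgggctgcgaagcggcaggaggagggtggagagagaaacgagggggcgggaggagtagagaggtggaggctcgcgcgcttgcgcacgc
Tbx18: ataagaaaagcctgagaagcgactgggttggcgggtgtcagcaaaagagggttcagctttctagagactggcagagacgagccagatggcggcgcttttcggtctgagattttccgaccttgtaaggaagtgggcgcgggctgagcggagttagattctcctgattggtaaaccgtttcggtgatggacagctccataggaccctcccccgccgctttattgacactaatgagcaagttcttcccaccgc
The Hcn4 stretch held 1 T-box core, on the opposite strand, and the Shox2 stretch held 1 homeobox core. Neither core was found in the Vsnl1 and Tbx18 stretches, nor was a GATA core, AGATAA, found in any of the 4. These motifs do not overlap with each other here, and among all 32851 promoter windows of 250 bases AGGTGT was present in 11.8%, TAATT in 25.0% and AGATAA in 9.99%, so the matches are common ones and are given as a description. The Hcn4 stretch ends upstream of the gene start in the deposited table, and the other 3 end at it. The table of promoters held windows for 6 of the 8 genes.

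Hcn4 encodes the main HCN channel of the sinoatrial node, and it lies on chromosome 9 from 58823412 to 58863175. Its level was 3.07, 9.61 and 5.18 FPKM in sham 1 to 3 and 1.97, 4.34 and 6.61 FPKM in VO 1 to 3, from 219 to 1014 fragments. Sham 2 was the highest library and VO 1 the lowest, a 4.87-fold range, and the groups overlapped. The group means were 5.95 ± 3.34 FPKM in sham and 4.31 ± 2.32 in VO, and the log2 fold change was -0.47 with a 95% confidence interval of -1.70 to 0.77 (limma, SE 0.52, adjusted p = 0.682). The difference rested on VO 1 and on sham 2. The log2 fold change was 0.000503 without VO 1 and -0.049 without sham 2.

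Hcn2 encodes a second pacemaker channel that is also found in working myocardium and neurons, and it lies on chromosome 10 from 79716634 to 79736108. It was read at 8.57, 5.61 and 4.92 FPKM in the sham libraries and at 4.57, 4.76 and 8.01 FPKM in the VO libraries. Here sham 1 and VO 3 were high and the other 4 libraries lay within 4.57 to 5.61 FPKM, a pattern unlike that of Hcn4, for which sham 1 was the second lowest library. The mean was 6.37 ± 1.94 FPKM in sham and 5.78 ± 1.93 in VO, and the log2 fold change was -0.14 (limma, SE 0.28, 95% confidence interval -0.80 to 0.51, adjusted p = 0.818). It was 0.09 without sham 1.

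Shox2, a homeobox factor needed for the formation of the node, lies on chromosome 3 from 66971727 to 66981771 on the minus strand. Its levels were 2.54, 6.10 and 3.69 FPKM in sham and 1.07, 4.17 and 6.34 FPKM in VO, from 64 to 348 fragments. As with Hcn4, the highest values were in sham 2 and VO 3 and the lowest in VO 1, and within VO alone the highest level was 5.95 times the lowest. The means of 4.11 ± 1.81 and 3.86 ± 2.65 FPKM gave a log2 fold change of -0.32 (limma, SE 0.63, 95% confidence interval -1.80 to 1.16, adjusted p = 0.822). Without VO 1 it was 0.40, and without sham 2 it was 0.00441. Rsrc1 overlaps Shox2 on the other strand with 434 to 559 fragments, and the sources used here do not say whether strand entered the counting, so reads of both genes may be mixed where they overlap.

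Tbx3, a T-box repressor of working myocardial genes in the conduction system, lies on chromosome 5 from 119670669 to 119684724. It was read at 1.77, 2.36 and 1.67 FPKM in sham and at 1.45, 2.14 and 2.47 FPKM in VO. Sham 2 and VO 3 were again the 2 highest libraries and VO 1 the lowest, over a narrower range of 1.71-fold. The log2 fold change was 0.05 (limma, SE 0.24, 95% confidence interval -0.53 to 0.62, adjusted p = 0.945), and it changed sign with quantile normalization and with any of 4 single libraries left out, down to -0.11 without VO 3, while it was 0.26 without VO 1.

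Isl1, a LIM-homeodomain factor of cardiac progenitors, of the node and of cardiac neurons, lies on chromosome 13 from 116298281 to 116309689 on the minus strand. It was read at 0.114, 0.308 and 0.186 FPKM in sham and at 0, 0.170 and 1.11 FPKM in VO, which stand for 7, 21, 12, 0, 11 and 72 fragments. The 0 in VO 1 allows up to 0.0418 FPKM when 3 fragments are taken as the limit of a count of 0. The level in VO 3 had a 95% Poisson interval of 0.865 to 1.39 FPKM against 0.190 to 0.470 in sham 2, the next highest library, intervals that cover counting error only. In the wider fit the log2 fold change was 0.13 (limma, SE 0.88, adjusted p = 0.965), and without VO 3 it was -0.83. Isl1 also changed sign with the pseudocount, to -0.65 with 0.01 in place of 0.1.

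Tbx18, a T-box factor of sinus venosus progenitors and of the epicardium, lies on chromosome 9 from 87702800 to 87731260 on the minus strand. The sham libraries held 2.67, 4.19 and 3.58 FPKM and the VO libraries 6.30, 3.72 and 5.99 FPKM, from 196 to 539 fragments. VO 1 and VO 3 were above all sham libraries, while VO 2 lay between sham 3 and sham 2. The log2 fold change was 0.59 (limma, SE 0.25, 95% confidence interval 0.01 to 1.17, unadjusted p = 0.0477, adjusted p = 0.414), and the exact permutation test over the 6 libraries, whose smallest p is 0.1, gave p = 0.2. The difference was positive under all 19 alternatives, between 0.41 with array weights and 0.83 without VO 2, and its unadjusted p was under 0.05 in 10 of them. Both counts include FPKM as given, which repeats the main fit because the scaling factors were 1. Settings that changed only the filter or the variance kept the same 0.59.

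The secreted matrix protein Smoc2 binds calcium and is used as a marker of the node, and its gene lies on chromosome 17 from 14279506 to 14404790. It was the most abundant and the steadiest of the 8 genes, at 9.89, 9.76 and 9.09 FPKM in sham and 9.55, 11.0 and 12.1 FPKM in VO. VO 2 and VO 3 lay above all sham libraries and VO 1 among them. The log2 fold change was 0.18 (limma, SE 0.12, 95% confidence interval -0.10 to 0.46, adjusted p = 0.508).

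Vsnl1, a calcium sensor protein of the visinin family that is enriched in the node, lies on chromosome 12 from 11325242 to 11436613 on the minus strand. It was read at 3.65, 9.64 and 5.15 FPKM in sham and at 2.11, 6.02 and 7.58 FPKM in VO. Sham 2 was highest and VO 1 lowest, the same extremes as for Hcn4. The log2 fold change was -0.29 (limma, SE 0.52, 95% confidence interval -1.53 to 0.94, adjusted p = 0.801), and it was 0.25 without VO 1 and 0.085 without sham 2.

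**Figure D2:**
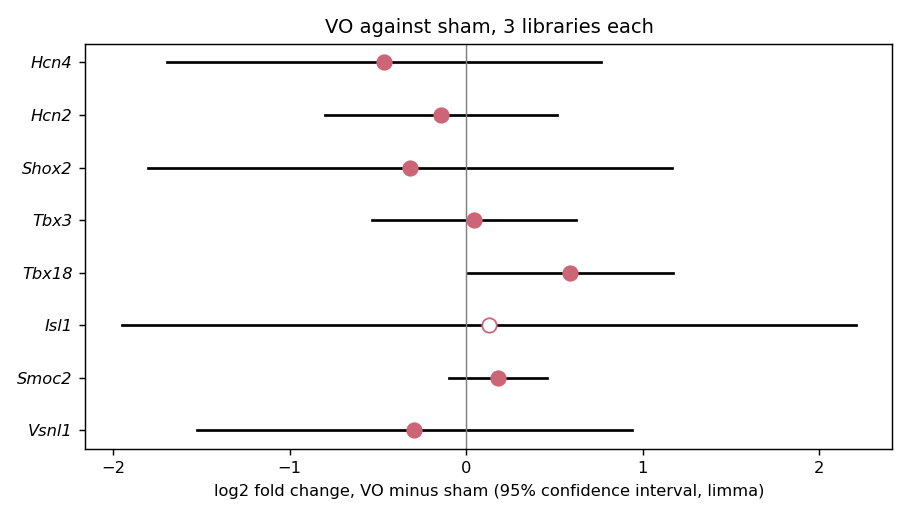
Log2 fold change of the 8 genes, VO minus sham, with its 95% confidence interval from limma (3 libraries per group). The open circle marks Isl1, which was read from the wider fit, and the interval of Tbx18, from 0.01 to 1.17, is the only one that leaves out 0.

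Since VO 3 stood apart, the fold changes were also read without it. The log2 fold change was then -0.85 for Hcn4, -0.83 for Shox2, -0.65 for Vsnl1 and -0.40 for Hcn2, all further below 0 than with VO 3. For Tbx18 it was 0.49 and for Smoc2 0.10. With VO 3 left out, the adjusted p of the 8 genes lay between 0.466 and 0.850 in limma. VO 1 and VO 2 still stood apart in Hcn4, at 1.97 and 4.34 FPKM.

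By mean level over the 6 libraries the order was Smoc2, Hcn2, Vsnl1, Hcn4, Tbx18, Shox2, Tbx3 and Isl1, from 10.2 down to 0.314 FPKM. Smoc2 and Hcn2 differed by 4.17 FPKM, more than the larger of their SDs over libraries (1.76), and so did Tbx3 and Isl1, by 1.66 FPKM against 0.408. The other 5 neighbours in this order differed by less than the larger SD, a measure that does not pair the genes within a library. Vsnl1 was above Hcn4, Hcn4 above Tbx18 and Shox2 above Tbx3 in 5 of 6 libraries each. Shox2 was not above Tbx3 in VO 1. Hcn2 was above Vsnl1 in 3 of 6 libraries and Tbx18 above Shox2 in 2 of 6.

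The spread inside the groups was unlike that of most genes. After the group means were removed, the SD of log2(FPKM + 0.1) was 0.83 for Hcn4, 1.01 for Shox2 and 0.84 for Vsnl1, against a median of 0.20 over the 12627 genes, and it was larger than in 96.4%, 97.6% and 96.4% of them. For Isl1 it was 1.32, larger than in 94.6% of the 19053 genes of the wider fit. Hcn2, Tbx18 and Tbx3 had SDs of 0.43, 0.37 and 0.32, and Smoc2 of 0.13, larger than in only 23.8% of genes. The counting error of Hcn4 was narrower than these gaps, since its exact 95% Poisson intervals ran from 1.72 to 2.25 FPKM in VO 1 and from 9.03 to 10.2 FPKM in sham 2.

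Hcn4, Shox2, Vsnl1, Tbx3 and Isl1, a grouping made after their values were seen, went up and down together over the libraries. Shox2 and Vsnl1 had a Pearson's r of 0.98 and a Spearman's rho of 0.94, Hcn4 and Vsnl1 an r of 0.97 and a rho of 0.94, and Hcn4 and Shox2 an r of 0.94 and a rho of 0.89, each over 6 libraries that share their depth and tissue piece between genes. The 10 pairs of the grouping had r between 0.78 and 0.98. Without VO 1 the lowest r was 0.58, for Hcn4 with Isl1, and without both VO 1 and sham 2, the libraries farthest from the median of Hcn4, it was 0.58 for Hcn4 with Tbx3 over 4 libraries, where Shox2 with Vsnl1 had an r of 0.99. Without VO 3 the lowest r was 0.83. Tbx18 had r between -0.14 and 0.17 with these 5 genes and Hcn2 between 0.16 and 0.53. Smoc2 lay between, with r from 0.27 for Hcn4 to 0.72 for Tbx3.

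**Figure D3:**
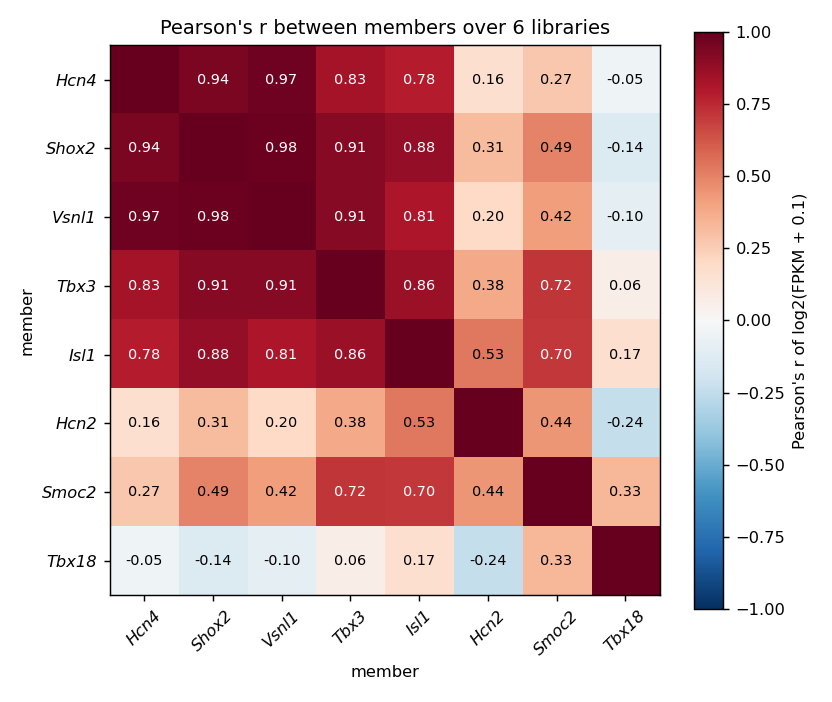
Pearson's r of log2(FPKM + 0.1) for each pair of the 8 genes over the 6 libraries, from -1 (blue) to 1 (red). The upper left block of Hcn4, Shox2, Vsnl1, Tbx3 and Isl1 holds values of 0.78 to 0.98, and the row of Tbx18 stays between -0.24 and 0.33.

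Taken as a mean over the 7 genes of the main test, the difference from the gene mean on the log2 scale was -0.25, 0.41 and -0.08 in sham 1 to 3 and -0.61, 0.03 and 0.50 in VO 1 to 3. The groups averaged 0.03 ± 0.34 in sham and -0.03 ± 0.56 in VO, and sham 2 and VO 3 were the high libraries of their groups. These were also the 2 libraries with Ddx3y, 1 in each group, so that sex as read from the RNA and the level of the nodal genes cannot be told apart here. With Ddx3y detection as a covariate the SE of Hcn4 was 0.33 in place of 0.52 and its adjusted p 0.591, and none of the 8 genes had an adjusted p under 0.05.

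Relative to Tnnt2, a scale chosen after the levels were seen, the order of the low libraries changed for some of the genes. Hcn4 stood at 6.32, 23.2 and 12.2 FPKM per 1000 FPKM of Tnnt2 in sham and at 8.95, 11.6 and 21.7 in VO, so that sham 1 and not VO 1 was lowest, as also with Myh6 in the place of Tnnt2. Shox2 was still lowest in VO 1, at 4.83 per 1000 FPKM of Tnnt2, and highest in VO 3, at 20.8. Vsnl1 went from 7.52 in sham 1 to 24.9 in VO 3, but per 1000 FPKM of Myh6 it was lowest in VO 1, at 1.30 against 1.40 in sham 1. For Tbx3 the sham libraries held 3.64, 5.70 and 3.93 and the VO libraries 6.57, 5.71 and 8.12, which did not overlap on this scale, where no test was made. Tnnt2 itself was lower in all VO libraries than in all sham libraries, and 55.4% of the 12627 genes were higher in VO without overlap per Tnnt2, so that this is no result about Tbx3. With Myh6 in the place of Tnnt2 the nearest Tbx3 values were 0.807 in sham 2 and 0.809 in VO 2, and 28.3% of all genes were higher without overlap. Hcn4, Shox2 and Vsnl1 overlapped on both scales.

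Other genes known from the node were read from a list of 15, of which 14 were tested. Of these, 5 were higher and 9 lower in VO, none had an unadjusted p under 0.05 (0 of 14 against 12.0% of all genes) or an adjusted p under 0.05, and the median log2 fold change was -0.10 against -0.01 over all genes. Voom on recovered fragments, another test, put 1 of them, Cpne5, under an unadjusted p of 0.05. Cpne5, named with its values known, stood at 2.07, 3.04 and 2.97 FPKM in sham and 0.556, 1.83 and 2.16 FPKM in VO. The groups overlapped, and in limma its log2 fold change was -0.96 (SE 0.47, adjusted p = 0.431). The 3 most abundant were Igfbp5, Tbx5 and Gnao1. Igfbp5, a binding protein of insulin-like growth factors, stood at 83.8, 151 and 135 FPKM in sham and 152, 138 and 165 FPKM in VO (log2 fold change 0.34, SE 0.23), with sham 1 as the low library, without which the log2 fold change was 0.080. Tbx5, a T-box factor of the atria and conduction system, stood at 40.4, 49.5 and 45.9 FPKM in sham and 33.7, 47.0 and 34.9 FPKM in VO (log2 fold change -0.24, SE 0.16), and the groups overlapped through VO 2.

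Gnao1, the alpha subunit of a G protein that couples to muscarinic receptors, stood at 19.3, 24.4 and 28.2 FPKM in sham and 18.0, 24.2 and 22.3 FPKM in VO (log2 fold change -0.15, SE 0.18). Gjc1, the gene of connexin 45, a gap junction protein of nodal cells, was the 1 gene of the 14 without overlap (21.2% over all genes), and is named after its values were seen, at 4.19 to 5.28 FPKM in sham and 5.35 to 6.23 FPKM in VO (log2 fold change 0.21, limma, adjusted p = 0.491). The mean over the 14 genes was -0.15, 0.16 and 0.13 in sham 1 to 3 and -0.22, 0.10 and -0.02 in VO 1 to 3, with VO 1 lowest, as in the mean over the 7 genes. Sham 2 was highest here, whereas VO 3 was highest for the 7 genes. Over the 6 libraries this mean had an r of 0.84 with Hcn4, 0.84 with Vsnl1, 0.79 with Shox2 and -0.25 with Tbx18.

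**Figure D4:**
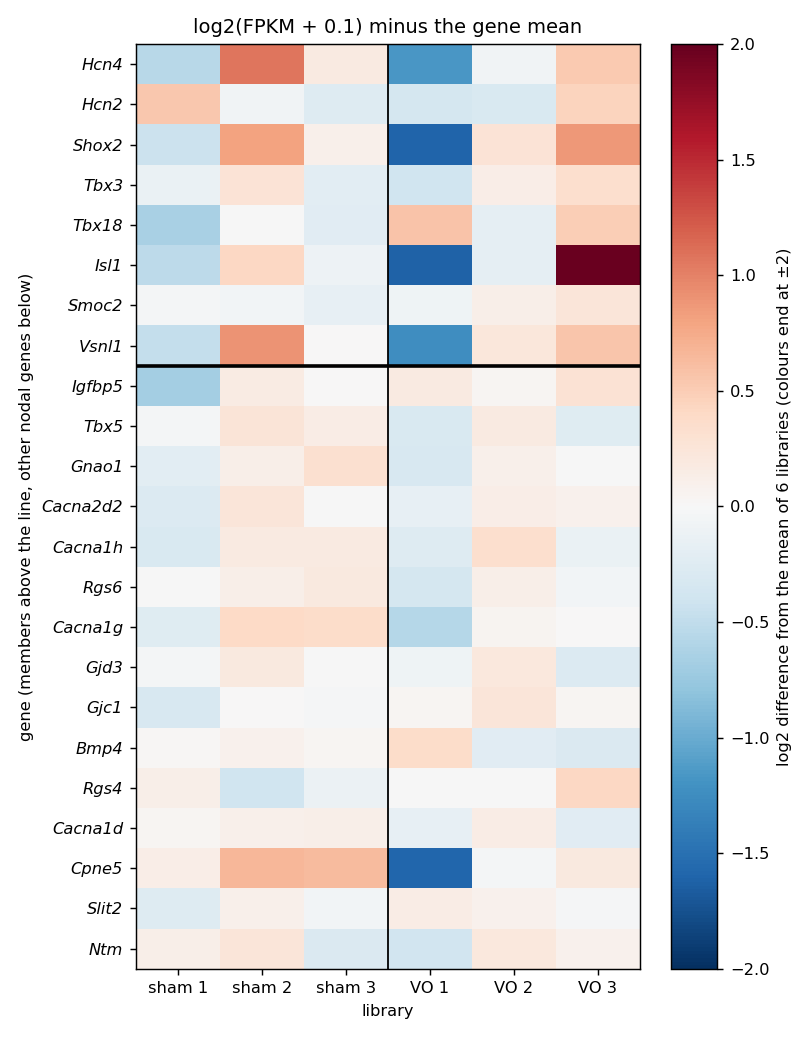
Difference of log2(FPKM + 0.1) from the mean of the 6 libraries for the 8 genes (above the line) and the 15 other nodal genes (below), with sham left and VO right of the vertical line and colours ending at -2 and 2. VO 1 is low and sham 2 and VO 3 are high for Hcn4, Shox2, Isl1 and Vsnl1, and Cpne5, at 0.556 FPKM in VO 1, has the deepest blue below the line.

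Of the 11 genes listed as HCN family and partners, 7 were tested, all 7 lower in VO, and the median of their log2 fold changes was -0.35. There were 3 genes with an unadjusted p under 0.05, all lower (3 of 7 against 8.08% of all genes lower at that threshold), and none passed after adjustment. Popdc2, a cAMP-binding protein of the popeye family, stood at 200, 197 and 212 FPKM in sham and 141, 157 and 128 FPKM in VO (log2 fold change -0.52, SE 0.12, limma, unadjusted p = 0.00376, adjusted p = 0.344). Cav3, the caveolin of muscle, stood at 91.2, 64.5 and 60.4 FPKM in sham and 32.0, 47.2 and 39.1 FPKM in VO (log2 fold change -0.86, SE 0.20, adjusted p = 0.344). Bves, another popeye gene, stood at 25.1 to 27.0 FPKM in sham and 16.4 to 22.8 FPKM in VO (log2 fold change -0.36, adjusted p = 0.410). These 3 genes, whose groups did not overlap (21.2% of all genes did not), are expressed in working cardiomyocytes as well as in the node.

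All 8 genes of the calcium clock, the cycle of calcium release and reuptake that helps to time the node and that also drives contraction, were tested. Slc8a1 and Casq2 were lower and Itpr2 higher in VO at an unadjusted p under 0.05 (3 of 8 against 12.0% of all genes), and no gene passed after adjustment (median log2 fold change -0.16). Slc8a1, the sodium-calcium exchanger, stood at 52.1, 53.7 and 53.1 FPKM in sham and 38.5, 42.3 and 36.9 FPKM in VO (log2 fold change -0.43, SE 0.10, limma, adjusted p = 0.344). Casq2, which binds calcium in the sarcoplasmic reticulum, stood at 352 to 413 FPKM in sham and 244 to 324 FPKM in VO (log2 fold change -0.45, adjusted p = 0.404), and Itpr2, an IP3 receptor, at 2.75 to 3.35 and 3.64 to 4.26 FPKM (log2 fold change 0.37, adjusted p = 0.406). With Atp2a2 and Camk2d, named after their values were seen, 5 of the 8 genes were without overlap between the groups, against 21.2% of all genes.

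Muscarinic and adrenergic control slows and speeds the node, and its 7 listed genes were all tested, with 3 higher and 4 lower in VO (median log2 fold change -0.16). Kcnj5, a subunit of the potassium channel opened by acetylcholine, stood at 90.9, 97.5 and 114 FPKM in sham and 67.6, 84.6 and 73.2 FPKM in VO, without overlap (log2 fold change -0.42, SE 0.14, limma, unadjusted p = 0.0181, adjusted p = 0.404). Adora1, the adenosine A1 receptor, stood at 3.06 to 4.10 FPKM in sham and 2.26 to 3.24 FPKM in VO (log2 fold change -0.45, SE 0.18, adjusted p = 0.411), which makes 2 of 7 lower at the unadjusted threshold against 8.08% of all genes. The other 5 had an unadjusted p above 0.05, among them Chrm2, the muscarinic receptor of the heart, at 73.1 to 86.7 and 64.9 to 73.8 FPKM.

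Genes of the working atrial myocardium, against which a nodal share would be read, stood lower in VO for 8 of 10, and their median log2 fold change was -0.43. Nkx2-5, a homeobox factor of working myocardium, stood at 72.8, 73.5 and 61.5 FPKM in sham and 50.5, 56.8 and 44.1 FPKM in VO (log2 fold change -0.46, SE 0.14, limma, adjusted p = 0.404). Myl4, Myl7 and Bmp10 also had an unadjusted p under 0.05, with log2 fold changes of -0.90, -0.81 and -0.47 and no overlap, so that 4 of 10 were lower at this threshold (8.08% over all genes) and 4 of 10 without overlap (21.2%). With quantile normalization none of these 4 had an unadjusted p under 0.05, and Myl4 stood at -0.47 and Bmp10 at -0.20. Summed over the list, the level was 12280 to 18327 FPKM in sham and 5763 to 11577 FPKM in VO, lowest in VO 1. Of 4 tested ventricular genes 3 were lower. Myl3, at 117 to 246 FPKM in sham and 83.8 to 121 in VO, had an unadjusted p of 0.0273 in limma (adjusted p = 0.408). It was the 1 of 4 under 0.05, against 8.08% of all genes lower at that threshold. The summed ventricular level was 124 to 310 FPKM in sham and 95.5 to 144 in VO, and Irx4 stood at 0 to 0.259 FPKM.

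Isl1 and the neuronal genes were high in the same library. Of the 8 listed markers of cardiac neurons 7 were highest in VO 3, among them the factor Phox2a at 0.747 FPKM against at most 0.190 in the other 5 libraries, and Snap25, Chat and Slc18a3 were at 0 in all libraries but VO 3. Only 2 of the 8 had a mean FPKM of at least 1, neither with an unadjusted p under 0.05, and the summed level was 9.47 to 10.3 FPKM in sham and 5.53 to 19.2 in VO. Dbh, the most abundant, which makes noradrenaline, ran otherwise, at 4.79 FPKM in VO 1 and 8.52 to 9.74 in the other 5. The Schwann cell list was highest in VO 3 for both genes, with S100b, a calcium-binding protein of glia, at 9.22 FPKM there and 0.665 to 1.24 in the other 5, and a summed level of 2.03 to 2.45 FPKM in sham and 1.71 to 11.1 in VO. The 4 adipocyte markers were likewise highest in VO 3, with a summed level of 0 to 0.773 FPKM in sham and 0, 0 and 370 FPKM in VO. The part of these tissues in the high Isl1 of VO 3 was not tested.

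Tbx18 moved with collagen and epicardial genes. All 6 epicardial markers were higher in VO on the log2 scale, none with an unadjusted p under 0.05 and none without overlap (median log2 fold change 0.37), and Upk3b turned to -0.27 with array weights. Upk3b, the most abundant of them and a gene of mesothelium, stood at 11.9, 38.3 and 19.5 FPKM in sham and 27.2, 13.8 and 25.9 FPKM in VO. The summed level was 36.9 to 110 FPKM in sham and 45.2 to 112 in VO, and its 3 highest libraries, VO 1, sham 2 and VO 3, were also the 3 highest in Tbx18. Col1a2, a chain of type I collagen, stood at 48.2, 69.9 and 60.7 FPKM in sham and 108, 64.1 and 94.7 FPKM in VO. Its log2 fold change was 0.56 (limma, unadjusted p = 0.0424, adjusted p = 0.411). It was the 1 of 7 fibroblast genes with an unadjusted p under 0.05, close to the 12.0% over all genes (3.89% higher in VO). Of the 7 genes 5 were higher, and the summed level was 654 to 677 FPKM in sham and 662 to 909 in VO.

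On the log2 scale Tbx18 had an r of 0.82 with the mean of the epicardial list over the 6 libraries. Its r was 0.77 with the mean of fibroblasts and 0.73 with that of pericytes and smooth muscle. With HCN family and partners it was -0.82 and with working atrial myocardium -0.97. The other list means had r between -0.50 (calcium clock) and 0.67 (immune cells) with Tbx18. With Col1a2 alone its r was 0.99 and its rho 1. Of the fibroblast list Col1a1 ranked the libraries alike, but the others did not. Pdgfra and Dcn, named after their values were seen, were highest in sham 1, at 17.5 and 313 FPKM, where Tbx18 was lowest. Tcf21, also named after its values were seen, was lowest in VO 3, at 15.0 FPKM. The part of epicardial, fibroblast and pericyte RNA in the level of Tbx18 was not tested.

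**Figure D5:**
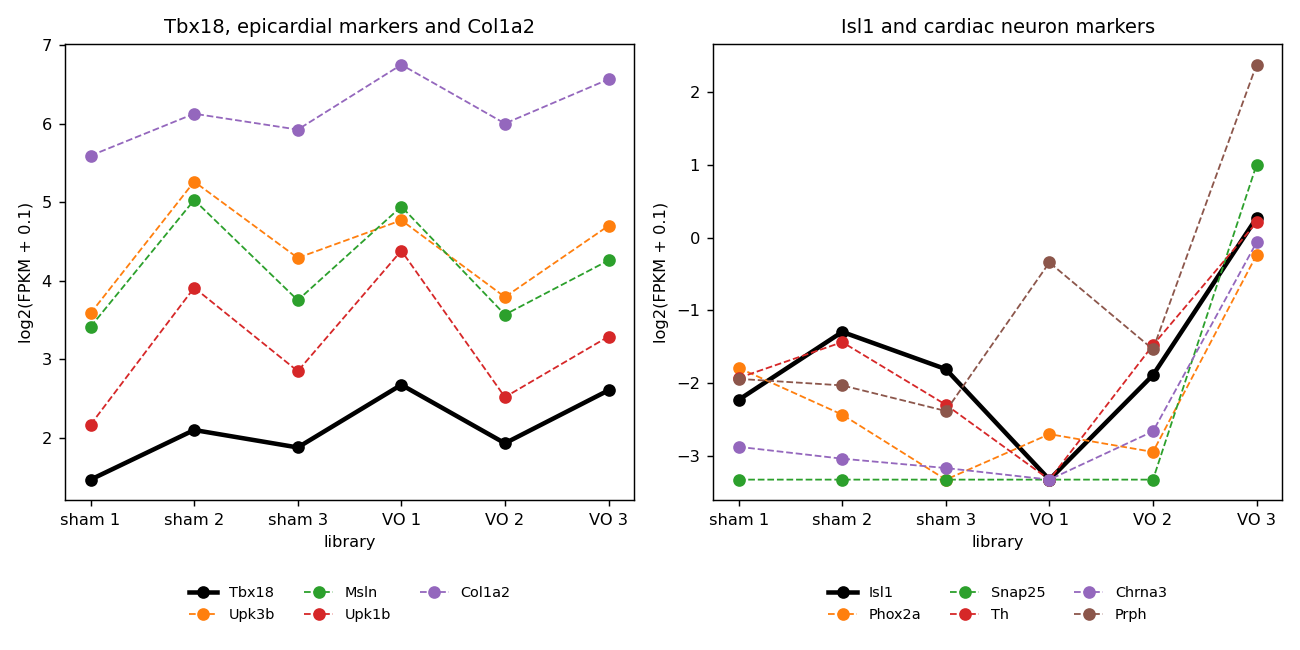
Log2(FPKM + 0.1) in each library for Tbx18 with 3 epicardial markers and Col1a2 (left) and for Isl1 with 5 neuronal markers (right); lines only join the points of a gene and carry no order. Tbx18 and Col1a2 rank the 6 libraries alike, and Isl1 and the 5 neuronal markers drawn are highest in VO 3. Dbh, the most abundant of the listed neuronal markers, is not drawn and was highest in sham 1.

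The remaining lists were read at the unadjusted threshold. Under it were 1 of 7 genes of pericytes and smooth muscle, 1 of 3 immune genes and 1 of 3 endothelial genes. All were higher in VO, against 3.89% of all genes higher at that threshold, and none passed after adjustment. Without overlap between the groups were 3 of 7, 2 of 3 and 1 of 3 genes of these lists, against 21.2% of all genes. Of 7 genes of pericytes and smooth muscle, 5 were higher, and Rgs5, a pericyte gene, stood at 64.6 to 73.2 FPKM in sham and 79.1 to 110 in VO (log2 fold change 0.44, limma, adjusted p = 0.404), with a summed level of 119 to 124 and 133 to 173 FPKM. The 3 tested immune genes were all higher, and the macrophage gene Cd68 stood at 6.37 to 7.13 FPKM in sham and at 17.8, 7.47 and 10.6 FPKM in VO (log2 fold change 0.75, adjusted p = 0.410). The summed immune level was 44.5 to 83.1 FPKM in sham and 53.6 to 108 in VO, highest in VO 1, the library with the lowest Hcn4. Of 3 endothelial genes, Cdh5, a junction protein, stood at 39.9 to 45.6 FPKM in sham and 48.9 to 55.5 in VO (log2 fold change 0.28, adjusted p = 0.410), with a summed level of 168 to 189 and 160 to 184 FPKM. Of the skeletal muscle list 1 gene was tested, Acta1, at 0.415 to 3.48 FPKM in sham and 0.0800 to 1.70 in VO, with Myh1 at 0 in all libraries and a summed level of 1.41 to 4.82 and 1.08 to 3.06 FPKM.

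Over all tested genes, those most like each of the 7 genes were found by Pearson's r over the 6 libraries, as a description. For Hcn4 they were Focad, Rbm28 and Fmod, with r of 0.99, 0.99 and 0.99 and a rho of 1 for each. Fmod, a proteoglycan of collagen fibrils, ran from 4.17 to 16.8 FPKM, while Focad stayed within 1.17 to 1.41 FPKM. For Shox2 the first was Vsnl1, followed by Echdc3 and Gm15906, and for Vsnl1 the first was Shox2, followed by Copg1 and Trappc9, all with r of 0.98. So Shox2 and Vsnl1 were each other's nearest gene among 12627.

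Hcn2 was most like Eef1akmt1, Gm11223 and Dhrs4 (r 0.98 to 0.99), and Tbx3 was most like Zfyve27, Rbmx and Gm28609 (r 0.97 to 0.99). Smoc2 was most like Lix1, Gm5457 and Acsl1 (r 0.97 to 0.99). For Tbx18 the 3 were Gsr, which encodes glutathione reductase, at r = 0.996, and the collagen genes Col1a2 and Col1a1, at r = 0.995 and 0.990, each with a rho of 1. These genes were picked for the highest r among 12626 over 6 libraries, so their high values are no result in themselves. Between 10 (Tbx3, 0.0792%) and 71 (Tbx18, 0.562%) of 12626 genes had an r of at least 0.95 with a given gene. With Shox2 it was 26 (0.206%).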

How the data were processed

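RNA of RAs from 3 sham and 3 VO libraries was read as the FPKM table deposited by the authors. They aligned the reads with HISAT2 v2.0.5, counted them per gene with featureCounts v1.5.0-p3 and turned the counts into FPKM by gene length; the submitters' processing notes name GRCm38, and the annotation release and the use of strand are not given in the sources used here. The 1 incomplete row was left out. Each value gave back whole fragments within 0.01 for 100% of values, 15963082 to 17237903 per library, so a gene's precision follows its fragments.

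FPKM values, scaled by the median of ratios, were fitted as log2(FPKM + 0.1) with limma 3.58.1 in R 4.3.3 (lmFit, eBayes with trend; mean FPKM of at least 1, or 0.1 for Isl1; two-sided, Benjamini-Hochberg over all tested genes, threshold 0.05). The study used a count model; none was run on FPKM, and voom on recovered fragments stood among the alternatives. Fits were checked on simulated counts with the same small dispersion for every gene. That check does not cover genes with a spread as wide as Hcn4, Shox2, Vsnl1 and Isl1. Intervals of levels are exact Poisson at 95%. The sample titles number the replicates and state no pairing. Libraries of the same number had correlations of -0.108, 0.0112 and -0.0292 after the group means were removed. With 3 libraries per group this check cannot exclude a pairing.

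The 8 genes, the lists, the tests and the alternatives, except those named as added later, were chosen with earlier results of these data known. Named were the 8 genes; from the lists of other nodal genes and of HCN family and partners, genes with an unadjusted p under 0.05 or, if fewer than 3, the most abundant up to 3; from every other list those with an unadjusted p under 0.05 (at most 4) or else the most abundant; and the 3 genes most like each of the 7 genes. Promoter sequences came from RefSeq, with bases after the start left out. Some listed genes are not reported here, and their lists are counted without them.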

Additional observations from a re-analysis of the deposited data

How the results depend on the processing

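No alternative gave any of the 8 genes an adjusted p under 0.05. Tbx18 and Smoc2 stayed higher in VO in every alternative run for them, while the other 6 genes changed sign in at least 1. Left-out libraries moved the log2 fold change from -0.86 to 0.000503 for Hcn4, from -0.40 to 0.0877 for Hcn2, from -0.83 to 0.40 for Shox2, from -0.11 to 0.26 for Tbx3, from -0.83 to 0.97 for Isl1 and from -0.65 to 0.25 for Vsnl1. Other reversals were 0.10 for Hcn2 with array weights, -0.0149 for Tbx3 with quantile normalization, and for Isl1 -0.0680 with TPM, -0.65 with a pseudocount of 0.01 and -0.91 with voom on recovered fragments. Among marker genes, Upk3b was -0.27 with array weights and -0.36 to 0.48 with a library left out, S100b -0.0319 without VO 3 and up to 1.67 without VO 2, and Acta1 -1.41 to 0.26. The causes were not tested beyond the library left out.

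Of the 8 genes, 1 had an unadjusted p under 0.05. This was 2 with TPM (Tbx18 and Smoc2), 1 with array weights, where Smoc2 took the place of Tbx18, 0 with eBayes without trend, no filter or quantile normalization, and 0 to 1 with a library left out. With a mean FPKM of at least 5 it was 0 of the 4 genes tested, without Tbx18. TPM moved the median of all genes from -0.01 to 0.13 on the log2 scale, so the 0.32 of Smoc2 and the 0.74 of Tbx18 there stand against that shift. Over all 12627 genes the count at that threshold was 1511, and 855 to 1998 with a library left out. Of the other nodal genes the count of 0 became 1 with TPM (Rgs4) or voom (Cpne5) and 0 to 1 with a library left out.

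The pairing check found no pairs by replicate number but cannot exclude them. With that number as a block, 0 of the 8 genes and 2 of the other nodal genes, Cpne5 and Cacna1g, had an unadjusted p under 0.05. Tbx18 kept 0.59 with an SE of 0.28 in place of 0.25 (limma, adjusted p = 0.601). For Hcn4 the SE was 0.30 in place of 0.52. Of all genes, 932 had an unadjusted p under 0.05. The block brought none of the 8 genes to an adjusted p under 0.05. At the unadjusted threshold the HCN list gave 1 gene and the calcium clock 1 with quantile normalization (3 each as reported), the working atrial list 1, Nppa, in place of the 4 reported genes, and the muscarinic and adrenergic list 0 with TPM (2 as reported). With a library left out the working atrial list gave 1 to 5. Cpne5, Cacna1g and Rgs4 were picked out with their values known, and the Ddx3y covariate and the Tnnt2 and Myh6 scales were added after the data were seen. Depth limits Isl1 most, with 0 to 72 fragments per library.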
